A study of Mus musculus with 162 samples.

Results

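Perigonadal white fat (pgWAT), the pad that lies along the epididymis inside the abdomen, was compared with posterior-subcutaneous white fat (psWAT), the pad under the skin of the hind body. Libraries were chosen by the organ in their titles: all 18 pgWAT libraries, and the psWAT libraries other than 22 h replicate 2 and 12 h replicate 3, which leaves 16. These 34 libraries belong to a series of 162, in which 36 libraries come from white fat. The study took 9 organs from each of 18 male C57Bl/6J mice, adults of 8 to 9 weeks, and sequenced mRNA from each organ. There were 3 mice at each of 6 lengths of fasting: 0 h, where food stayed available, and 2, 8, 12, 18 and 22 h, all killed early in the dark period. The labels name no transgene, allele or drug, and water stayed available to all mice. The animal number links the organs of a mouse, and 16 mice have both depots among the 34 libraries: 3 each at 0, 2, 8 and 18 h and 2 each at 12 and 22 h.

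Visceral pads such as the perigonadal one are covered by mesothelium, a sheet of epithelium-like cells that lines the body cavity, and their cells descend in part from mesoderm that expresses Wt1. Subcutaneous pads have no such cover, lie beside skin and body wall muscle, and in the mouse can enclose lymph nodes. Fat cells of each pad keep a record of body position in their homeobox genes, and those of subcutaneous pads more readily switch on Ucp1, the mitochondrial carrier that turns fuel into heat.

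The libraries held 5784709 counts in the shallowest pgWAT library, 8163341 at the median and 19829510 in the deepest, and 4099281, 6935437.5 and 9802381 in psWAT. A count of 3, taken here as the floor of detection, equals 0.151 to 0.519 CPM (counts scaled to a library total of 1e6) in pgWAT and 0.306 to 0.732 CPM in psWAT. Levels of single genes are given below as normalized CPM, that is CPM after TMM scaling, in the order lowest, median and highest library of a depot. Floors cover counting error only.

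Some libraries stand apart. Each library was correlated by rank (Spearman) with the mean profile of either depot, with its own animal left out of the means. All 18 pgWAT libraries lay nearer to pgWAT, at 0.875 to 0.990, against 0.764 to 0.848 to psWAT. Of the 16 psWAT libraries 15 lay nearer to psWAT. The exception was psWAT of animal 7 at 8 h, with 0.934 to pgWAT and 0.897 to psWAT. Its label was kept, since its Hoxc10 level of 29.4 normalized CPM was the highest of any psWAT library while the highest of pgWAT was 1.03. In pgWAT the lowest values were those of animal 17 (0.875) and animal 15 (0.914), whose libraries also carried genes of the epididymis, as did those of animals 5 and 18. In psWAT the libraries of animals 5, 8 and 15 were the richest in genes of skeletal muscle. Animal 17 has no pair, so that its pgWAT library enters the levels and not the tests. The first principal component of the 34 libraries carried 59.9% of the variance and the next 9.17%. On the first, pgWAT lay between 51.8 and 88 and psWAT between -150 and 17.0, without overlap.

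The depots differed in a large part of the transcriptome. Of 17826 genes tested in the 16 pairs, 3939 (22.1%) were higher in pgWAT and 3898 (21.9%) higher in psWAT, together 7837 (44%). A gene was called at an adjusted p under 0.05 (edgeR, Benjamini-Hochberg over all genes tested) and an absolute log2 fold change (log2FC) over 1, always pgWAT over psWAT, and the median log2FC of all genes tested was 0.04. The most different genes were more often of psWAT: an absolute log2FC over 4 was reached by 284 genes higher in pgWAT and 746 higher in psWAT. The direction was the same in all 16 mice for 1657 of the genes higher in pgWAT and 1967 of those higher in psWAT. Protein-coding genes were 3281 and 2840 of the calls. Within the 6 mice whose libraries both ran in a single sequencing lane, 6612 of 16703 genes (39.6%) were called. These were animals 2, 3, 5, 6, 7 and 10, without any pair of 18 or 22 h, since lane 6 held pgWAT libraries only. Shares of called genes in the lists below read against these backgrounds. In bulk tissue, fewer cells of a type and less RNA per cell cannot be told apart. Where a depot has counts at or near 0, the size of a fitted log2FC depends on the small count that edgeR adds, so the levels come before it.

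Wt1 and Upk3b mark the perigonadal pad in these libraries. Wt1, a zinc finger regulator of the mesothelial and gonadal lineages (chromosome 2, 105126529 to 105173616, GRCm38), stood at 6.05, 13.7 and 21.1 normalized CPM in pgWAT and at 0, 0 and 0.392 in psWAT. Every pgWAT library was above every psWAT library, 14 of which had no count. The log2FC was 8.28 ± 0.38 (SE, n = 16 pairs, adjusted p = 2.37e-12). Upk3b, an uroplakin of the mesothelial surface (chromosome 5, 136038496 to 136046487), stood at 46.6 or more in pgWAT and at 0.686 or less in psWAT, again without overlap. Its log2FC was 10.08 ± 0.35 (adjusted p = 9.13e-14), and both genes were higher in pgWAT in all 16 pairs.

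The rest of the mesothelial markers followed. Of the 20 genes of that list, all were tested and 19 were higher in pgWAT, with a median log2FC of 4.81, and only Calb2 was not called, at 0.36 ± 0.89 (adjusted p = 0.721). Msln, the surface protein mesothelin, stood at 13.9, 56.4 and 84.0 in pgWAT and at 0, 0.0501 and 2.06 in psWAT. Upk1b, another uroplakin, stood at 19.5, 34.1 and 63.3 against 0, 0.0501 and 1.32. Neither gene overlapped between depots. Keratins of simple epithelia were less clean: Krt19 was higher in pgWAT (log2FC 5.38 ± 0.90, adjusted p = 2.89e-05, 14 of 16 pairs), yet it reached 81 in psWAT of animal 15 and 49.6 in that of animal 14. The summed level of the list was 312, 542 and 1608 CPM in pgWAT and 17.8, 33 and 423 in psWAT, where animals 15 (423) and 14 (320) were the high ones. The sums overlapped through those psWAT libraries alone, and within each of the 16 mice pgWAT had the higher sum.

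Other genes led the pgWAT side by p-value with the same direction in all 16 pairs. Bnc1, a zinc finger protein of mesothelium and germ cells, was read in all pgWAT libraries (1.21, 6.89 and 9.29) and had no count in 15 of 16 psWAT libraries. Rspo1, a secreted enhancer of WNT signals and also on the mesothelial list, stood at 29.7, 41.4 and 85.0 against 1.04, 1.90 and 6.75. Neither overlapped between depots. Genes with wider roles joined them. Penk, the precursor of the enkephalin opioid peptides, stood at 67.3 or more in pgWAT and at 13.5 or less in psWAT (log2FC 3.91 ± 0.18, adjusted p = 1.91e-12). Tfpi, the inhibitor of the tissue factor pathway of clotting, differed less (log2FC 2.02 ± 0.11, adjusted p = 2.95e-11), with 38.6, 76.1 and 90.6 against 12.4, 17.3 and 33.9, without overlap. The log2FC of Alox5, the enzyme that opens leukotriene synthesis, was 3.19 ± 0.18, that of Lrrc4c, a synaptic adhesion protein, 3.37 ± 0.16, and that of Pkhd1l1 5.20 ± 0.28, with all pairs in that direction.

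**Figure D1:**
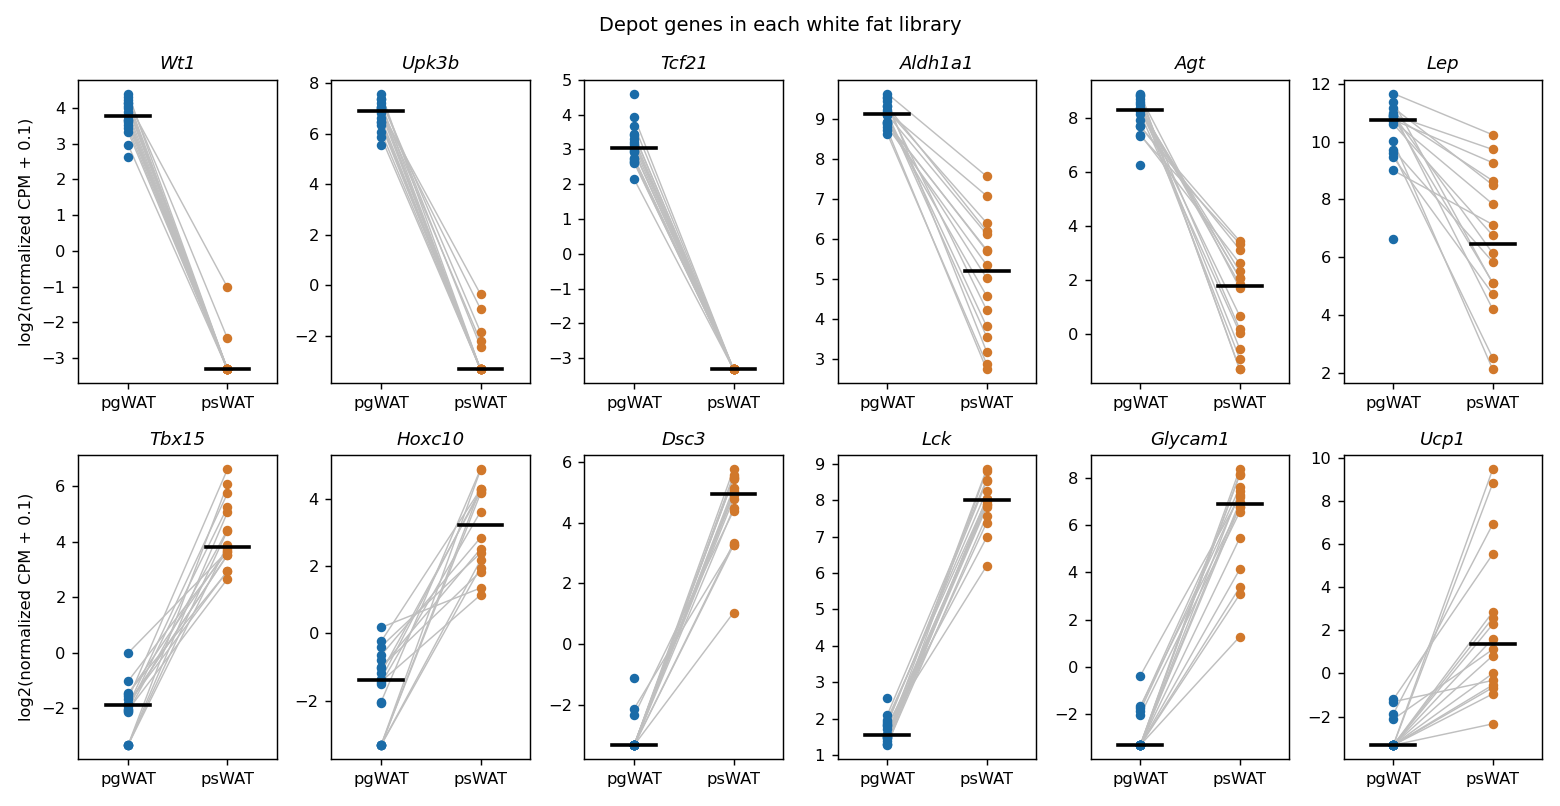
Levels of 12 genes in each library used, as log2 of normalized CPM plus 0.1, with lines that join both depots of a mouse. Wt1, Upk3b, Tcf21, Aldh1a1 and Agt lie higher in pgWAT and Tbx15, Hoxc10, Dsc3 and Glycam1 in psWAT without overlap, while Ucp1 spreads from 0.0980 to 710 normalized CPM within psWAT.

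Transcription factors that lay out the body plan split by depot. Of the 44 patterning genes listed, 34 were tested, 13 were higher in pgWAT and 9 in psWAT, with a median log2FC of 0.79. On the psWAT side Tbx15, a T-box factor of skin, limb and trunk mesenchyme (chromosome 3, 99240381 to 99354259), stood at 6.21, 14.0 and 97.3 in psWAT and at 0, 0.171 and 0.893 in pgWAT. No pgWAT library reached the lowest psWAT library, and the log2FC was -6.57 ± 0.41 (adjusted p = 1.46e-10, 16 of 16 pairs). The highest Tbx15 levels were those of psWAT from animals 5 (97.3), 15 (66.5) and 8 (53.2), the muscle-rich libraries, and the part of muscle in them was not tested. The next genes were picked after their values were seen. Tcf21, a helix-loop-helix factor of visceral mesoderm, was read in all pgWAT libraries (4.32, 8.09 and 24.3) and had 0 counts in all 16 psWAT libraries, at least 10.4-fold higher at the median of the 16 paired pgWAT libraries than the floor of the shallowest psWAT library. Gata5, of the GATA family of visceral organs, had counts in all pgWAT libraries (1.36, 2.68 and 4.48) and a single count in 1 psWAT library. Its relative Gata6 was called with a smaller difference (log2FC 1.94 ± 0.15), at 3.75, 16.9 and 26.6 against 1.77, 4.47 and 7.32, with overlap. Shox2, a limb homeobox factor, was higher in psWAT in all pairs (log2FC -3.84 ± 0.42), as was En1, a factor of ventral ectoderm and dermal lineages, in 15 of 16 (-3.00 ± 0.52). Lhx8, a LIM homeobox factor also known from brown fat, had 0 counts in all 18 pgWAT libraries and a median of 2.53 in psWAT, at least 4.23-fold higher there, with 1 psWAT library at 0. Prrx1, a general mesenchymal factor, was not called, at 25.5, 34 and 58.4 against 24.8, 40.5 and 64.2 (adjusted p = 0.469).

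HOX genes, whose order along each cluster mirrors the body axis, were called on both sides. Of 39 genes 27 were tested, and 18 were higher in pgWAT, 3 in psWAT and 6 were not called, with a median log2FC of 1.35. The 18 higher in pgWAT had paralog numbers from 1 to 9. Hoxc8 stood at 18.3, 128 and 150 in pgWAT and at a median of 16.6 in psWAT (log2FC 2.49 ± 0.34, adjusted p = 2.57e-06, 16 of 16 pairs). Hoxc5 (2.61 ± 0.31), Hoxc4 (2.21 ± 0.17) and Hoxa5 (1.91 ± 0.20) were also higher in pgWAT in every pair. The 3 genes higher in psWAT were Hoxa9, Hoxa10 and Hoxc10. Hoxc10 (chromosome 15, 102966796 to 102971893), a gene of the lumbar level of the axis, stood at 2.11, 9.64 and 29.4 in psWAT and at 0, 0.281 and 1.03 in pgWAT without overlap, and its log2FC was -4.92 ± 0.54 (adjusted p = 1.94e-07, 16 of 16 pairs). Hoxa9 followed at -2.61 ± 0.41 in 16 of 16 pairs and Hoxa10 at -3.23 ± 0.67 in 15. Hoxc9 (0.25 ± 0.34), Hoxd9 (-0.37 ± 0.27) and Hoxd10 (-0.65 ± 0.63) were not called, so a paralog number of 9 or 10 alone does not set the side. Hoxb6 had a pgWAT median of 9.58 and reached 197 in animal 15, with animal 17 next, and both libraries carry epididymal genes. Of the 12 genes not tested, Hoxd13 had no count in 15 of 18 pgWAT libraries and reached 24.1 in animal 17, 4.27 in animal 5 and 0.693 in animal 18. The part of epididymal tissue in those levels was not tested, and without animals 5, 15 and 18, a choice made after seeing the data, 15 HOX genes were higher in pgWAT and 3 in psWAT. Hoxb6 was not called without animal 15, at a log2FC of 0.92. In the 6 mice with both libraries in a single lane Hoxa10 missed the threshold (-2.94, adjusted p = 0.0830).

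**Figure D2:**
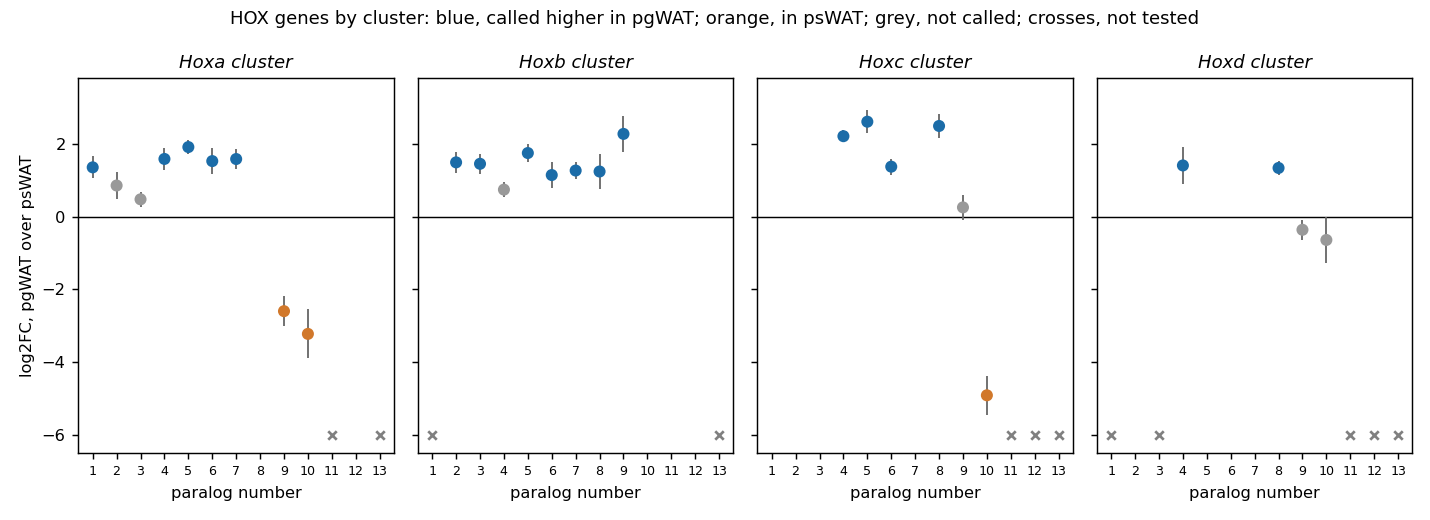
log2FC of pgWAT over psWAT for the HOX genes tested, by cluster and paralog number, with bars for the SE over 16 pairs. Blue points are genes called higher in pgWAT, orange points the 3 called higher in psWAT (Hoxa9, Hoxa10 and Hoxc10), grey points those not called, and crosses mark the 12 genes not tested.

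Genes of the fat cell itself were higher in pgWAT. All 26 members of the adipocyte list that were tested were called higher there, with a median log2FC of 2.98. Adipoq, which encodes the hormone adiponectin, stood at 744, 5206 and 11121 in pgWAT and at 31.2, 605 and 2945 in psWAT (log2FC 3.86 ± 0.61, adjusted p = 1.61e-05, 16 of 16 pairs). Lep, the gene of the satiety hormone leptin, stood at 99.3, 1723 and 3251 against 4.24, 89.2 and 1208 (3.96 ± 0.59, adjusted p = 8.01e-06). For Adipoq the depots overlapped only because pgWAT of animal 17 was low, while for Lep psWAT of animals 9 (1208) and 7 (849) lay above further pgWAT libraries. The most abundant transcripts moved the same way: Car3, a carbonic anhydrase of fat and muscle, at 3.23 ± 0.53, Cfd, the complement protease adipsin, at 2.82 ± 0.62, Fabp4, the fatty acid carrier of adipocytes, at 2.85 ± 0.57, and Lpl, the lipase that frees fatty acids from lipoproteins, at 2.59 ± 0.52. Agt and Mest stood out and were picked after their values were seen. Agt, the precursor of angiotensin, stood at 76.3, 314 and 476 in pgWAT and at 0.301, 3.30 and 10.7 in psWAT, without overlap (6.87 ± 0.55, adjusted p = 4.20e-09). Mest, an imprinted gene tied to fat cell growth, stood at 51.8, 278 and 451 against 0.303, 3.69 and 87.8 (5.35 ± 0.60), with overlap.

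The summed adipocyte level shows how far these libraries differ in what they hold. It was 14862, 105036 and 135435 CPM in pgWAT, where animal 17 was the low one and all others had at least 80677. In psWAT it was 2182, 20760 and 86805, from animal 16 to animal 7. All 16 mice had the higher sum in pgWAT, and the ranges overlapped. The T cell and B cell sums ran the other way in the same libraries, as described below, and what that share of lymphocyte RNA does to the adipocyte values was not tested. Animal 7 has the psWAT library with most adipocyte and fewest T cell transcripts. In its pair the median log2 ratio was 0.54 for adipocyte genes, where the 16 pairs had a lowest of 0.54 and a highest of 6.73. For mesothelial genes it was 4.78, the highest of any pair, for T cell genes -2.82, the smallest difference of any pair, and for HOX genes -0.41 and for patterning genes -0.50, both the lowest of any pair. Animal 9 has the second highest adipocyte sum and the second lowest T cell sum in psWAT, and in its pair the adipocyte median was 0.75 and the mesothelial median 2.85, the lowest of any pair.

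**Figure D3:**
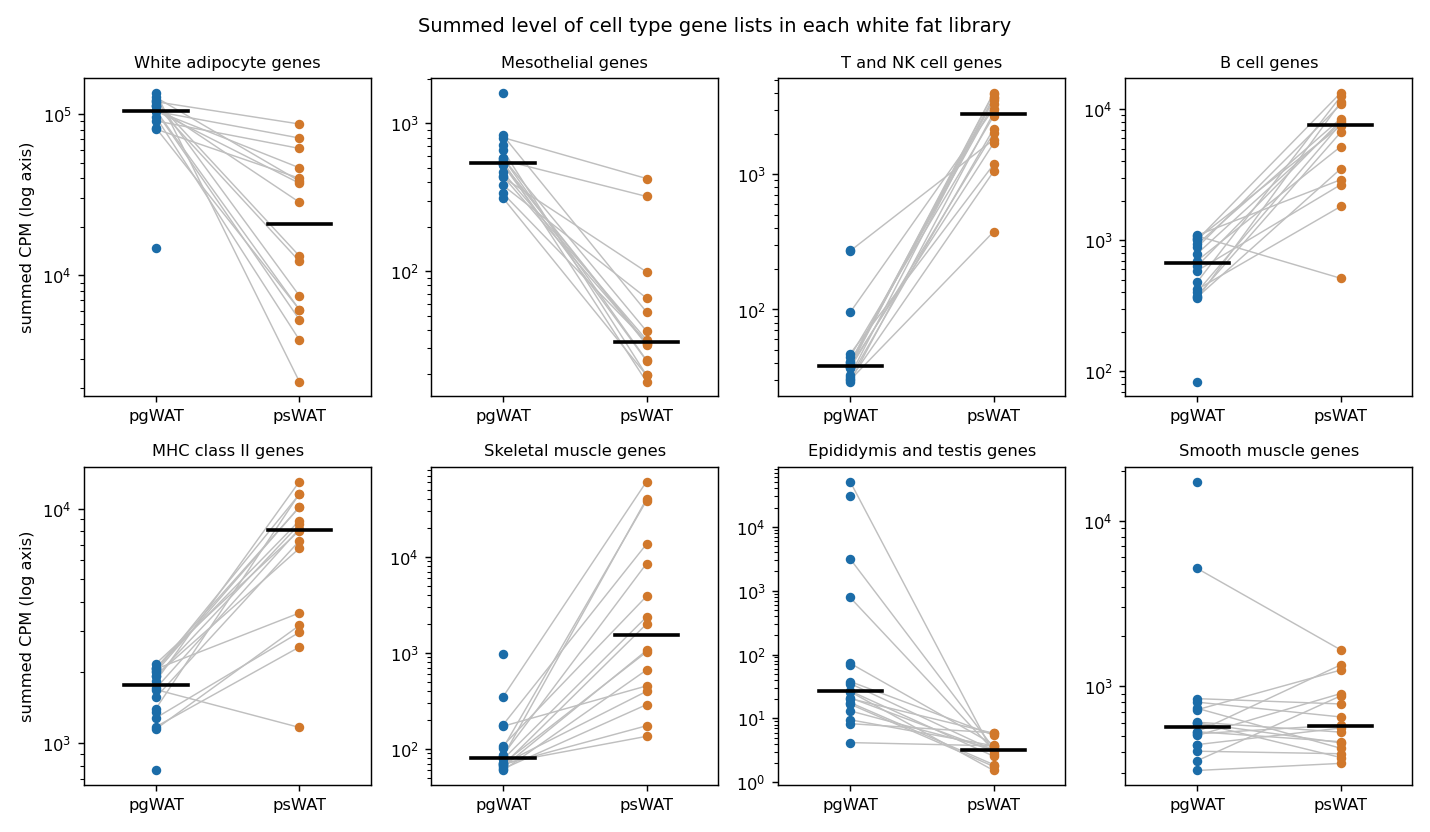
Summed CPM of cell type gene lists in each library on a log axis, with lines that join both depots of a mouse. The T cell sums do not overlap, with 29.2 to 276 in pgWAT and 376 to 3999 in psWAT, and the mesothelial sums overlap only through psWAT of animals 15 and 14.

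Lipid metabolism went with the adipocyte genes. Of 28 genes of fatty acid and triglyceride synthesis 20 were higher in pgWAT and 8 were not called, with a median log2FC of 1.46. Dgat2, which completes triglyceride synthesis, stood at 177, 2288 and 4099 in pgWAT and at 14.8, 311 and 2005 in psWAT (3.09 ± 0.55, adjusted p = 6.14e-05, 16 of 16 pairs). Scd1, the desaturase that makes oleate, was higher in pgWAT in all pairs (2.94 ± 0.52), though psWAT of animal 1 reached 26906 against a pgWAT highest of 27819. Not every synthetic gene differed: Acacb, the carboxylase that guards fatty acid oxidation, was not called at 0.55 ± 0.48 (adjusted p = 0.306), and the desaturase Scd2 stood at 0.04 ± 0.22 (adjusted p = 0.883). Of 22 genes of lipolysis and its receptors 16 were higher in pgWAT, with a median of 1.75. They include the lipases Lipe (2.63 ± 0.45) and Pnpla2 (2.64 ± 0.47), the Pnpla2 inhibitor G0s2 (2.69 ± 0.50), the fat cell adrenergic receptor Adrb3 (3.18 ± 0.52) and the natriuretic peptide clearance receptor Npr3 (4.69 ± 0.63, adjusted p = 2.18e-06, 16 of 16 pairs). Adra2a, named after its value was seen, was among those higher in psWAT. The insulin receptor substrate Irs2 was not called, at 0.55 ± 0.14. The pair median was above 0 in 13 of 16 pairs for synthesis genes and in 15 for lipolysis genes. In the pair of animal 7 these medians were -0.19 and -0.55. For synthesis genes those of animals 1 (-0.40) and 9 (-0.095) were below 0 as well. Since the lymphocyte sums differ between the same libraries, their part in these differences too was not tested.

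Genes of brown and beige fat were divided. Of 27 listed genes 25 were tested, 12 were higher in psWAT and 4 in pgWAT, with a median log2FC of -1.28. That median was -0.79 without animal 18 and -0.51 with the CPM minimum asked of 16 libraries. The sums did not lean, with medians of 339 CPM in pgWAT and 338 in psWAT and 8 pairs each way, and in 6 of 16 pairs the median over the genes was above 0. Ucp1 stood at 0.0980, 2.51 and 710 in psWAT and at 0, 0 and 0.336 in pgWAT, where 14 of 18 libraries had no count. The log2FC was -9.21 ± 0.85 (adjusted p = 2.37e-08, 16 of 16 pairs). Most of the psWAT signal sat in few mice: animals 1 and 2 at 0 h had 710 and 451, animal 18 came next and animal 15 had 46.2, while the other 12 libraries stayed at or below 7.14. Cidea, a lipid droplet protein of brown fat, stood at 1.57, 28.1 and 740 in psWAT and at 2.22, 4.82 and 8.36 in pgWAT, and was highest in animals 18, 1 and 2 (log2FC -2.98 ± 0.66, adjusted p = 0.000523, 15 of 16 pairs). Cox8b, a subunit of respiratory complex IV, was called by a narrower margin (-1.65 ± 0.57, adjusted p = 0.0141, 10 of 16 pairs). In the 6 single-lane mice neither Cidea (-2.62, adjusted p = 0.0614) nor Cox8b (-1.67, adjusted p = 0.0743) passed the threshold. Without animals 5, 15 and 18, left out after seeing the data, Cox8b stood at -1.14 (adjusted p = 0.103). Without animals 5, 8 and 15, whose psWAT libraries were the richest in muscle genes, Cox8b stood at -1.25 (adjusted p = 0.0979). That choice too was made after seeing the data, and the part of muscle in the Cox8b level was not tested. Against these, Ebf2, a factor that opens brown fat genes, was higher in pgWAT (2.19 ± 0.40). The other 3 on that side were Slc36a2 (1.27 ± 0.46) and, named after their values were seen, Cyp2b10 and Ppara. Slc36a2 was not called without the animal block (0.85) or in the single-lane mice (1.93, adjusted p = 0.0592). Ppara was not called in 11 of the 16 leave-one-out fits, where its log2FC ran from 1.13 to 1.42 and its adjusted p from 0.0527 to 0.0823.

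Hormone and vitamin A genes had strong members on the pgWAT side. Of 20 genes of steroid reception and metabolism 16 were tested, 8 were higher in pgWAT and 1 in psWAT (Hsd17b1, named after its value was seen and not called with lane as a covariate, at -0.84), with a median of 0.90. Esr1, the estrogen receptor alpha gene, differed by 2.04 ± 0.34 in 15 of 16 pairs, and Hsd11b1, which regenerates active glucocorticoid, by 1.71 ± 0.27. The glucocorticoid receptor Nr3c1 was not called, at 0.76 ± 0.12. Of 22 retinoid genes 21 were tested, 11 were higher in pgWAT and 5 in psWAT, with a median of 1.02. Aldh1a1, which makes retinoic acid from retinal, stood at 394, 553 and 789 in pgWAT and at a median of 36.4 in psWAT, without overlap (4.04 ± 0.37, adjusted p = 2.23e-08). Rbp4, the retinol carrier of plasma, differed by 3.73 ± 0.52 and Rarres2, the gene of the adipokine chemerin, by 2.22 ± 0.32. The receptor Rara went the other way (-1.59 ± 0.16, 16 of 16 pairs). The other 4 retinoid genes higher in psWAT, named after their values were seen, were Crabp2, Stra6, Lrat and Cyp26b1, of which Crabp2 was not called without the animal block (-0.98) and Stra6 not in the single-lane mice (-1.89). The median log2 ratio of retinoid genes was -0.16 in the pair of animal 7, the lowest of any pair, and -0.09 in that of animal 15. The part of the lymphocyte and adipocyte transcripts in these differences was not tested.

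Genes of the stroma around fat cells leaned to pgWAT as well, with exceptions among progenitor markers. Of 24 progenitor genes tested 14 were higher in pgWAT and 3 in psWAT, with a median of 1.36. Cd34, a surface protein of progenitors and vessels, stood at 128, 217 and 258 in pgWAT and at a median of 60.7 in psWAT, without overlap (1.77 ± 0.17). Cd81 (1.42 ± 0.14) and Fmo2 (3.00 ± 0.31) were higher in pgWAT in all 16 pairs. Cd55, a brake on complement and a mark of early interstitial progenitors, was higher in psWAT (-1.53 ± 0.15, adjusted p = 5.22e-08, 16 of 16 pairs), ranging from 62.3 to 229 against 14.8 to 73.7. So were Icam1, named after its value was seen, and the chemokine Cxcl12 (-1.01 ± 0.14), which fell under the fold required, at -0.95 to -0.999, when any of 7 mice (animals 4, 5, 7, 10, 13, 14 or 15) was left out. The broad markers Ly6a (0.03 ± 0.13) and Dpp4 (-0.35 ± 0.22) were not called. In the pair of animal 7, with the smallest T cell difference, the median log2 ratio was -0.04 for progenitor genes, 0.59 for matrix genes and 0.49 for secreted signals, against medians over the pairs of 1.35, 1.92 and 1.54. In that of animal 15, whose T cell median was -4.96, these medians were 0.42, -0.25 and 0.25. Its matrix and secreted signal medians were the lowest of any pair. The part of the lymphocyte transcripts in these differences was not tested.

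Matrix and growth factor genes followed the stroma. All 36 matrix genes were tested, 29 were higher in pgWAT and 1 in psWAT (Tnc, named after its value was seen), with a median of 1.91. Dcn, the collagen-binding proteoglycan decorin, stood at 1173, 2144 and 3392 against a median of 366 and a highest of 723, without overlap (2.42 ± 0.20, adjusted p = 5.10e-09). Fn1, the gene of fibronectin, differed by 2.35 ± 0.20 and Col4a1, a basement membrane collagen, by 1.83 ± 0.26. Postn, the gene of periostin, was not called, at 0.60 ± 0.26. Among secreted WNT, BMP, TGF-beta, FGF and IGF signals and their modulators, 43 of 45 were tested, 29 were higher in pgWAT and 4 in psWAT, with a median of 1.68. Fgf1, a growth factor of fat remodelling, stood at 47.4, 99.1 and 158 in pgWAT and at 2.21, 10.0 and 25 in psWAT, without overlap (3.43 ± 0.25, adjusted p = 1.07e-09). Igfbp6 differed by 3.40 ± 0.38 and Igf1 by 2.08 ± 0.28. On the psWAT side stood Igfbp3 (-1.40 ± 0.15), Tgfb1 (-1.34 ± 0.19) and, named after their values were seen, Grem1 and Dkk2, of which Dkk2 was not called without animal 14 (-0.96) or without the animal block (-0.81).

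Complement and macrophage genes were called more often in pgWAT than in psWAT, with exceptions. Of 24 complement and acute phase genes tested 20 were higher in pgWAT and 1 in psWAT (Clu, not called without the animal block, at -0.84), with a median of 1.83. Hp, the gene of the hemoglobin scavenger haptoglobin, stood at 709, 5083 and 6918 against 21.7, 212 and 1262 (4.27 ± 0.61, adjusted p = 5.35e-06, 16 of 16 pairs), and the complement inhibitor Serping1 differed by 1.53 ± 0.14. C3, the central complement protein, was not called at 0.41 ± 0.14. Of 23 macrophage genes 14 were higher in pgWAT and 4 in psWAT, with a median of 1.58. Among the pgWAT genes were Retnla (medians of 808 and 29.8, log2FC 4.72 ± 0.43, adjusted p = 2.06e-08), the hemoglobin receptor Cd163 (3.23 ± 0.38), the folate receptor Folr2 (2.51 ± 0.16) and the mannose receptor Mrc1 (1.96 ± 0.17). The general marker Lyz2 did not separate the depots (0.14 ± 0.20, adjusted p = 0.530). The scavenger receptor Marco was higher in psWAT (-3.61 ± 0.54, 15 of 16 pairs), and so were Timd4, Itgax and Cx3cr1, named after their values were seen. Marco is also known from macrophages of lymph nodes, and their part in its level was not tested.

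Lymphocyte genes were higher in psWAT. All 21 T and NK cell genes were called there, with a median log2FC of -5.93, and 15 of 16 B and plasma cell genes, with a median of -6.31. The T cell sum was 376, 2768 and 3999 CPM in psWAT and 29.2, 38.4 and 276 in pgWAT. The lowest psWAT library, that of animal 7, lay above the highest pgWAT library, that of animal 17. The B cell sum was 513, 7598 and 13330 in psWAT and 83.3, 668 and 1092 in pgWAT, and these overlapped through psWAT of animal 7 alone. Per length the most abundant T cell gene was Lck and the most abundant B cell gene Igkc, and no gene of either list was at 0 in all libraries of a depot. Lck, the kinase of the T cell receptor, stood at 73.2, 256 and 462 against 2.32, 2.85 and 5.81 (-6.35 ± 0.21, adjusted p = 4.54e-14). Cd3g, a chain of that receptor's complex, differed by -5.86 ± 0.19, Cd5 by -7.02 ± 0.24, Ltb, the lymphotoxin needed to build lymph nodes, by -6.59 ± 0.22, Tespa1 by -5.36 ± 0.16 and Gimap1 by -4.42 ± 0.16, each in 16 of 16 pairs. Trbc1 and Trbc2, the constant segments of the receptor beta chain, differed by -6.64 ± 0.24 and -6.54 ± 0.21, but reads of such close paralogs may be assigned to either. Ighm alone of the B cell list was not called (-0.95 ± 0.30), with a pgWAT median of 657 and a psWAT median of 1371, and it passed without animal 7 (-1.12), animal 9 (-1.06) or animal 18 (-1.01).

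Genes of lymph node structure were higher in psWAT too. Of 8 such genes 6 were higher there, with a median of -4.03, and Enpp2 and Chst4 were not called. Glycam1, an L-selectin ligand of the high endothelial venules through which lymphocytes enter nodes, ran from 2.32 to 333 in psWAT and from 0 to 0.668 in pgWAT, without overlap (-10.66 ± 0.38, adjusted p = 1.06e-13). Madcam1, another adhesion ligand of such vessels, stood at 1.07, 5.04 and 10.1 against 0, 0 and 0.346, and Cxcl13, the chemokine that draws B cells into follicles, at 8.21 to 218 against a median of 5.48 and a highest of 37.2. The sum of the list overlapped widely, at 251, 627 and 1285 in psWAT and 375, 461 and 783 in pgWAT. All 10 MHC class II genes were higher in psWAT, with a median of -1.65. The pair median was above 0 in 1 of 16 pairs, that of animal 7, at 0.28. H2-Ob, which is tied to B cells, differed by -6.44 ± 0.33 and Cd74, the chain shared by all class II cells, by -1.46 ± 0.23. Dsc3, a desmosomal cadherin of stratified epithelium and the gene with the second largest difference among those led by p-value in psWAT, stood at 1.96, 30.7 and 54.1 against 0, 0 and 0.363 (-9.92 ± 0.32). The cells that give this signal were not tested. The epidermal keratin Krt5 had psWAT levels of 0, 0.123 and 19.9 and was not called (adjusted p = 0.326), although without animals 5, 15 and 18 it was (-4.64, adjusted p = 0.00898). B3gnt5, a glycolipid enzyme (-6.63 ± 0.22), and AC140209.1, an unnamed transcript (-6.43 ± 0.22), complete the leading psWAT genes.

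Genes of muscle, nerve and epidermis were read in both depots, and the source of their transcripts was not tested. Of 22 skeletal muscle genes tested 21 were higher in psWAT, with a median of -5.72. Their sum had a median of 1532 CPM and a highest of 61193 in psWAT, and 80.3 and 970 in pgWAT, with Acta1 the most abundant per length, and psWAT of animals 5 (61193), 8 (40319) and 15 (38729) were the highest. Myh4, the myosin of fast fibres, ran from 1.61 to 6403 against 0 to 8.87, so that muscle transcripts were not confined to those 3 libraries. Without animals 5, 8 and 15, a choice made after seeing the data, 19 of 22 genes were called with a median of -4.81. Of 14 nerve genes tested 8 were higher in psWAT and 1 in pgWAT, with a median of -1.32, while their sum had a median of 347 in pgWAT and 315 in psWAT and was higher in pgWAT in 10 of 16 pairs. Mbp differed by -1.75 ± 0.12. Pmp22, a myelin protein that fibroblasts also make, was the gene higher in pgWAT (1.84 ± 0.33). Of 16 epidermal genes tested 8 were higher in pgWAT and 3 in psWAT (Dsc3, Sfn and, named after its value was seen, Krt17), with a median of 1.48. That median was 0.22 over 23 genes without the filter on low counts and 2.69 over 11 genes in the single-lane mice, and the sums overlapped, with 8 pairs each way.

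Epididymal genes were high in few pgWAT libraries. Of 21 listed genes 15 were tested and 14 called higher in pgWAT. These counts rest on a filter that asks the CPM minimum of 3 libraries, which a few pgWAT libraries can meet alone. With the minimum asked of 16 libraries, 1 gene of the list was tested. The sum was 4.18, 26.6 and 50990 CPM in pgWAT and 1.53, 3.24 and 5.95 in psWAT, and the high libraries were those of animals 15 (50990), 17 (29985), 5 (3142) and 18 (781), with all others at or below 72.9. The most abundant gene per length was Lcn8, a lipocalin of the epididymal duct, at 12663 in animal 15, and 10 genes of the list, Lcn8 among them, were at 0 in all psWAT libraries. The median log2FC of 8.94 is 2.11 with the genes at 0 in all psWAT libraries set to their bound, the only list median that this changed at 2 decimals. Without animal 15 it was 5.58, with 10 of 11 genes called. Smooth muscle genes were high in the same libraries in part: their sum was 17243 in pgWAT of animal 17 and 5144 in that of animal 5, against a pgWAT median of 564, and 5 of 11 were higher in pgWAT and 1 in psWAT (Des, -1.79 ± 0.24). In the single-lane mice this was 1 in pgWAT and 2 in psWAT, and the sum was higher in pgWAT in 9 of 16 pairs. Pancreas and liver genes had a pgWAT sum of 23.2, 52.9 and 4367, the last in animal 14 and mostly Alb (3808), and a psWAT sum of 3.09, 21.7 and 607, the last in animal 10 and above all pgWAT libraries but that of animal 14. Of these genes 6 of 7 tested were higher in pgWAT with a median of 2.41. Without animal 14 this was 4 of 6, with a median of 1.82, without animal 16 it was 3 of 7, and with lane as a covariate 2 of 7, with a median of 1.35. Without a filter on low counts 16 genes were tested and the median was 0.26. Of 16 endothelial genes 7 were higher in pgWAT, among them Gpihbp1, the capillary anchor of Lpl (1.76 ± 0.45), and Rgcc (2.27 ± 0.38), while Pecam1, the general marker, was not called (-0.67 ± 0.15). All 5 red cell genes were higher in pgWAT, with a median of 2.63. The reads of Hba-a1 and Hba-a2 may be exchanged between these close copies. Of 5 cerebellar genes tested, 1 was higher in psWAT (Syt1, not called in the single-lane mice, at -2.09), and the median of -0.82 turned positive, to 0.65, with lane as a covariate.

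**Figure D4:**
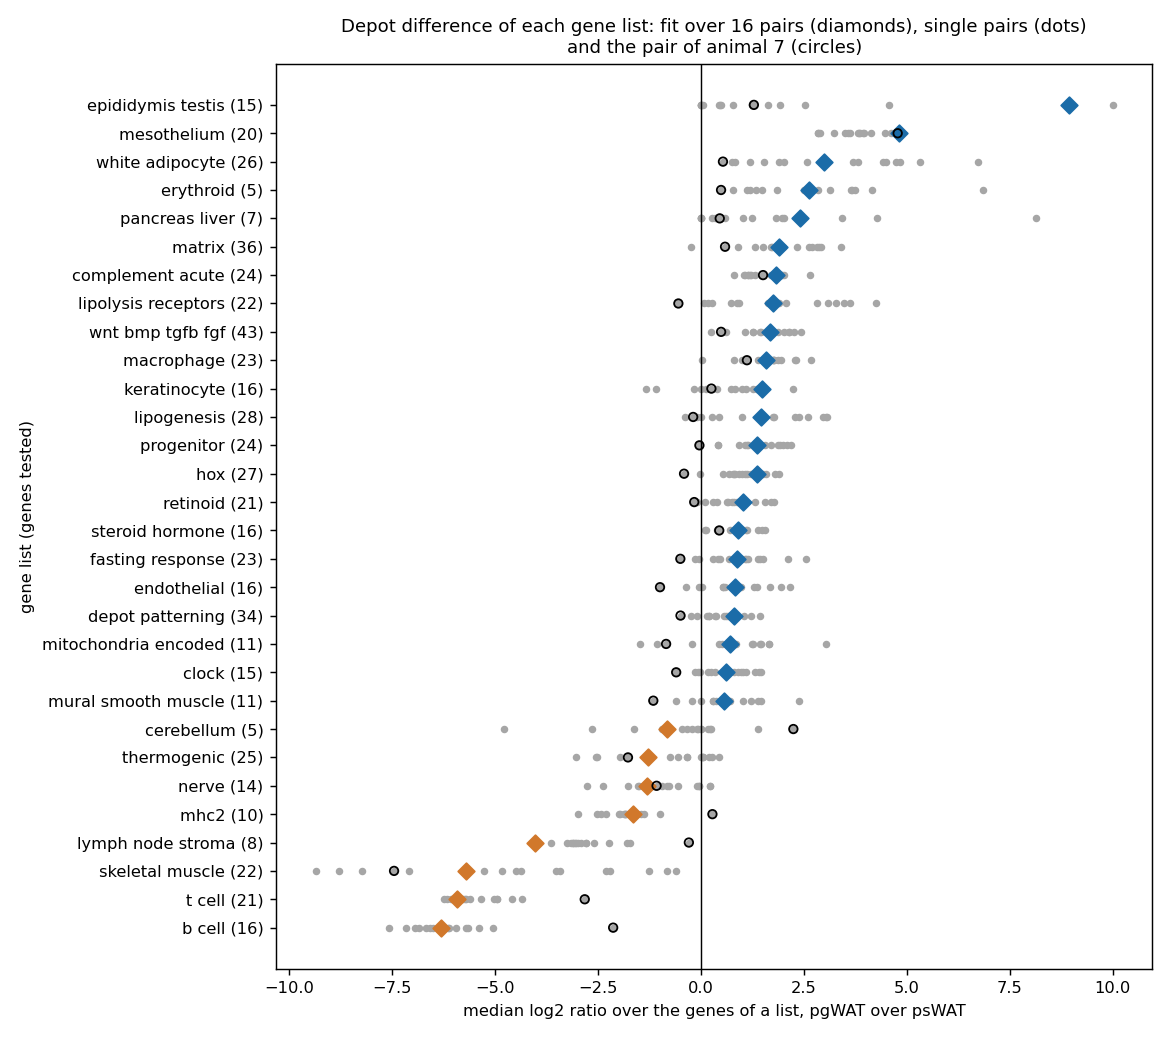
Median log2 ratio of pgWAT over psWAT over the tested genes of each list, in the fit over 16 pairs (diamonds), in each pair (dots) and in the pair of animal 7 (circles), with the number of genes tested beside each list. T cell, B cell and skeletal muscle genes lie on the psWAT side and mesothelial genes on the pgWAT side in every pair, with skeletal muscle from -9.35 in animal 15 to -0.60 in animal 14, while the adipocyte medians of single pairs run from 0.54 to 6.73.

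A further test asked whether the depot difference changes over the 6 lengths of fasting. All pgWAT libraries of 18 and 22 h ran in lane 6, which held no psWAT library. The parts of lane and fasting time in this test therefore cannot be told apart. With edgeR 0 of 17826 genes were called at an adjusted p under 0.05, the smallest being 0.238, while 2555 genes (14.3%) had an unadjusted p under 0.05 and DESeq2 called 1198. The count thus depends on the tool, with 2 or 3 pairs at each time. The 10 genes with the smallest p include Prtn3, a neutrophil serine protease (unadjusted p = 3.42e-05), whose log2FC was 0.53 at 0 h, 3.70 at 2 h, 0.41 at 8 h, 4.62 at 12 h, 1.38 at 18 h and 3.46 at 22 h. Slc20a1, a phosphate carrier (unadjusted p = 9.09e-05), stood at -0.46, -1.81, -0.65, -1.66, -1.73 and -2.72 in the same order of times, and Acss1, a mitochondrial enzyme that activates acetate (unadjusted p = 0.000168), at -2.14, -1.96, -1.36, -2.19, -1.88 and -3.00. Ucp1 (unadjusted p = 0.000213) had its largest difference at 0 h, where the psWAT libraries of animals 1 and 2 were high and that of animal 3, at 0.536, was not. None of these 4 passes the adjusted threshold. The other genes of the 10 were Tpm3-rs7, Atg4a-ps, Sgsm2, Abhd14b, Abi3bp and Ptges3-ps.

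Most called genes kept their direction over the times. Of the 3939 and 3898 called, 3429 of those higher in pgWAT and 3576 of those higher in psWAT had that sign at all 6 times. The mesothelial median ran from 3.08 at 18 h to 6.37 at 2 h, and the T cell median from -6.63 at 22 h to -4.98 at 8 h. The adipocyte median ran from 0.94 at 8 h to 4.90 at 2 h. The 8 h group holds animals 7 and 9, whose psWAT libraries have the 2 highest adipocyte sums, 86805 and 71060, so that time and these mice cannot be told apart. The same holds for the mesothelial median at 18 h, where psWAT of animals 14 and 15 had the highest mesothelial sums, 320 and 423. Of 23 genes known to respond to fasting 12 were not called, 10 were higher in pgWAT and 1 in psWAT, a called share near the 44% of all genes, with a median of 0.89 overall and -0.12 at 8 h. The gene higher in psWAT was Ddit4, named after its value was seen, which was at -0.93 and not called without animal 4, and likewise at -0.98 to -0.998 without animals 5, 10, 13, 14 or 16. Pck1, which feeds glycerol synthesis in fat, differed by 2.13 ± 0.54, whereas Txnip (0.80 ± 0.20) and Foxo1 (-0.39 ± 0.09) were not called. Of 15 clock genes 12 were not called, while Nr1d1 (1.30 ± 0.18) and Per3 (1.08 ± 0.27) were higher in pgWAT and Arntl (-1.37 ± 0.35) in psWAT. Per3 was not called without animal 6 (0.94) or animal 11 (0.999), and without animal 15 the list had 4 genes higher in pgWAT and 1 in psWAT. Of 11 protein genes of the mitochondrial genome tested, mt-Nd5 was higher in pgWAT (1.20 ± 0.36) and 10 were not called, and mt-Nd5 was not called with lane as a covariate (0.77).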

How the data were processed

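The authors extracted RNA from whole pads with a lipid tissue kit, made stranded mRNA libraries, aligned read pairs with TopHat2 2.1.1 to GRCm38.p5, counted reads over exons with HTSeq 0.9.1 and deposited raw counts without normalization or filter. The deposited counts were used as they are, for 53686 gene symbols, and 162 columns were matched to samples by library name. The strand setting of the counting is not given, so overlapping genes on opposite strands cannot be told apart. Coordinates come from a later Gencode release of the same build.

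Genes were tested with edgeR 4.0.16 in R 4.3.3 (TMM factors, robust dispersions, quasi-likelihood F test) with animal as a block and depot as the term of interest, in 16 pairs (15 residual degrees of freedom). The SE beside a log2FC was derived from the depot F test, as the absolute log2FC divided by the square root of F. Where a depot is at or near 0, it depends on the added small count as the log2FC does. The F test over fasting times had 5 degrees of freedom. Genes were kept at a CPM of 1.4, equal to 10 counts in the median library, in at least 3 of the fitted libraries. Libraries held 4099281 to 19829510 counts, and a count of 3 served as floor. Pairs rest on the animal numbers of the labels, and a check on the counts was weak: the correlation of a mouse's deviations across depots ran from -0.104 to 0.257. On simulated counts an adjusted p under 0.05, here without the fold threshold, was reached by 198 of 200 genes changed 4-fold. Of those changed 2-fold it was reached by 143 of 200, and their median absolute log2FC was 0.997. Unchanged genes that reached it were 3 and 5. For the test over times the change was set at 8, 12, 18 and 22 h together. There 100 and 0 of 200 reached it, with 2 and 0 unchanged genes.

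The members and the 30 gene lists were chosen with earlier results of these data known. Lists are described by counts and medians, without tests. Named genes are the 2 markers, the 12 genes of smallest p on each side with the same direction in all pairs, up to 6 called and 3 not called members of each list by mean level, HOX genes, and the 10 genes of smallest p over times. Selection by p passed over symbols of Gm and digits, those ending in Rik and those turned into dates. Others are said to be named after their values were seen. Alternatives in tool (DESeq2 1.42.0, limma 3.58.1 with statmod 1.5.0), normalization, filter, fold threshold, block, lane and libraries were run, with removal of animals that carry epididymal or muscle genes added after seeing the data. Tables and figures used Python 3.11.15, pandas 2.3.3, numpy 2.4.6 and matplotlib 3.10.9.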

Additional observations from a re-analysis of the deposited data

Results flagged for a closer look

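The psWAT library of animal 12 at 12 h, which the comparison leaves out, held a signal of another organ: the summed CPM of the cerebellar list was 8104, while the highest of the 34 libraries used was 207, in psWAT of animal 18. The nerve list summed to 4302 CPM in that library, against at most 952 in the 16 psWAT libraries used. How the signal came into the library was not tested.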

How the results depend on the processing

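The number of genes that differ between the depots was 7837 and ran, in all alternatives but that on the fold threshold, from 5616, with the CPM minimum asked of 16 libraries, to 9630, without a filter on low counts. Without the fold threshold it was 13656, with 6902 higher in pgWAT and 6754 higher in psWAT, since that alternative calls smaller differences as well. The other values were 7851 with DESeq2, 8035 with limma voom, 7829 with RLE size factors, 7988 with all 36 libraries, 7969 without animals 15 and 17 and 7541 with lane as a covariate. Animal 17 has no pair, so the fit without animals 15 and 17 is the same as that without animal 15 alone. Without the animal block, where pairing is given up, 7924 genes were called and 7412 of them were shared. The 2 alternatives chosen after seeing the data gave 7907 without animals 5, 15 and 18 and 7828 without animals 5, 8 and 15. When each animal was left out in turn, the depot difference counted 7424 to 8057 genes, those higher in pgWAT 3702 to 4077 and those higher in psWAT 3722 to 3999. Apart from the fold threshold, for which overlap was not computed, every gene shared between an alternative and the 7837 had the same direction in both.

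The depot difference varying with fasting time was called for 0 genes with edgeR in each alternative run for it, also when any animal was left out (0 to 0), and for 1198 with DESeq2. The cause of that gap was not tested. In the simulated data the depot difference changed at 8, 12, 18 and 22 h together. The edgeR test found 100 of 200 genes changed 4-fold and 0 of 200 changed 2-fold, so smaller changes would have been missed. A change at a single time was not simulated.

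Of 4361 values of the named genes over the alternatives, 76 values lost the call and 9 gained it, and 0 turned the sign of a called gene. Cxcl12 and Ddit4 lost it because their log2 fold lies near -1, and Ppara because of its adjusted p. The comparison of the 6 mice with both libraries in 1 lane, which has fewer pairs, lost 13. Of the 30 lists, 29 kept the sign of their median in all 28 settings, and the cerebellar list did not, at -2.21 to 0.65. The settings and values counted here hold the fit without animal 15 a second time, as that without animals 15 and 17. Depth limits the reading of genes near the floor, and the source of the epididymal and muscle transcripts was not tested.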

Other observations

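The 2 psWAT libraries outside the comparison differed from each other. That of animal 17 at 22 h held 2944552 counts, fewer than any psWAT library used. Its rank correlation was 0.938 to psWAT and 0.748 to pgWAT, with a T cell sum of 2661 CPM, an adipocyte sum of 13302 and a mesothelial sum of 16.6. Correlations, T cell sum and adipocyte sum lie within the range of the 16 psWAT libraries used, and the mesothelial sum is below their lowest, 17.8. That of animal 12 at 12 h lay at 0.818 to psWAT and 0.780 to pgWAT. Its Tbx15 level of 11.7 and Hoxc10 level of 6.61 normalized CPM were in the psWAT range, its T cell sum was 716 CPM, and its summed level of mesothelial genes was 1550 CPM, above the highest psWAT library used (423), although Wt1 and Upk3b had no count there and Msln stood at 0.147 normalized CPM. Most of that sum came from Gpm6a (1022 normalized CPM) and Calb2 (390), which neurons also express.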
